A study of Rattus norvegicus with 6 samples.

Results

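Axon guidance ligands and receptors were examined in rat oligodendrocyte progenitor cells (OPCs), the glial precursors that migrate through the brain and mature into myelin-forming oligodendrocytes. Members were taken by gene symbol: semaphorins of classes 3 to 7, plexins, neuropilins, Eph receptors, ephrins, Slits, Robos, netrins with their receptors, the CRMP adaptor genes (Dpysl and Crmp1), and the Nogo receptor and Lingo genes. The rule found 70 genes among 13355 with a single-symbol probe set. Of these, Unc50 and Unc5cl match the letters of the rule but encode no netrin receptor, which leaves 68 genes of the named families. Family members not analysed here include Lingo1, Epha4, Slit2 and Sema4d, and of the plexins Plxna1, Plxna4, Plxnb1 and Plxnc1.

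The treated cultures had received fibrinogen, the plasma clotting protein that enters the brain where vessels leak, for 48 h (3 arrays, "fibrinogen 1 to 3"). They were set against unstimulated control cultures whose titles carry the same 48 h (3 arrays, "control 1 to 3"). All cells were primary OPCs of newborn rat pups, postnatal day 1 to 2, kept for 2 days with the growth factors NT3 and PDGF and the supplements N2 and B27 before treatment. Fibrinogen was given in differentiation medium; the labels do not give the control medium separately. Whether the 3 arrays of a group came from separate cultures or pups is not stated, so p-values measure the spread between these arrays, which may be technical.

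Guidance molecules were named for steering growing axons. Semaphorins act through plexins, with neuropilins as co-receptors for most of class 3, ephrins through Eph receptors, Slits through Robos, and netrins through Dcc, neogenin and the Unc5 receptors. The receptors change the actin and microtubule skeleton through small GTPases and adaptors such as the CRMP proteins. OPCs carry many of the same molecules, which attract or repel them during migration and which, for several members, influence whether they mature.

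Of 11 listed OPC markers 8 were measured, and their mean log2 expression lay between 10.24 and 10.27 on fibrinogen arrays and between 9.90 and 9.98 on control arrays. Of these 8, Pdgfra, Cspg4, C1ql1 and Olig1 rose and none fell. The other 4 did not pass the test. Among them Ptprz1 and Vcan had positive estimates (log2 fold change 0.27 and 0.10), and Gpr17 and Sox10 negative ones (-0.14 and -0.09). Markers of other states moved with the treatment too: 7 of 11 measured oligodendrocyte markers fell and 1 rose, and 4 of 9 measured astrocyte markers rose. Another 4 of the 9 astrocyte markers had negative estimates, none of which passed the test. Of 13 neuron markers 2 rose and 2 fell, and of 11 microglia markers 2 fell. Pericyte and fibroblast markers had 1 rise among 8, and none of 5 endothelial markers passed the test. Over all genes 4.16% rose and 3.00% fell. The mean log2 level of the neuron list was 7.06 to 7.11 on fibrinogen arrays and 7.10 to 7.25 on control arrays. That of the microglia list was 4.29 to 4.32 on fibrinogen arrays and 4.49 to 4.60 on control arrays, where 10 of its 11 genes lay under the arrays' median. The oligodendrocyte list averaged 8.30 to 8.37 on fibrinogen arrays and 8.63 to 8.72 on control arrays, and the astrocyte list 7.79 to 7.80 on fibrinogen arrays and 7.52 to 7.56 on control arrays. The part of these cell states in the results below was not tested, and in bulk RNA fewer cells of a type and less RNA per cell cannot be told apart.

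Fibrinogen-treated OPCs had lower transcript levels of 8 guidance genes and higher levels of 4. The falls were the receptor genes Plxnb3, Ephb1, Epha7 and Neo1, the semaphorins Sema5a and Sema3e, and the adaptors Dpysl4 and Dpysl2. The rises were the plexins Plxna2 and Plxnb2, the ephrin Efnb3 and the netrin Ntn1. Changes were modest, between 1.25-fold and 1.68-fold, and no member changed 2-fold. Calls are at an adjusted p below 0.05 in limma, with Benjamini-Hochberg adjustment over all 13355 genes.

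The 12 called members are 17.1% of the 70, where 7.16% of all genes were called. The members were chosen with earlier results of these data known, so these shares are a description only. In the upward direction 4 of the 70 members were called, and 555 of all 13355 genes (4.16%). In the downward direction 8 of the 70 members were called, and 401 of all 13355 genes (3.00%). After subtracting each array's median from its values, 2 members were called higher and 8 lower, while the split over all genes turned to 434 higher and 516 lower in place of 555 and 401. The members had no shared direction: 34 estimates were positive and 36 negative (29 and 41 with median-centred arrays), with a median of -0.02 on the log2 scale, against 0.003 over all genes. The median size of a change, sign aside, was 0.19 for the members and 0.12 for all genes. Fibrinogen and control arrays did not overlap for 24 members (34.3%), where 27.0% of all genes had no overlap. By role, 2 of 30 ligand genes rose and 2 fell, 2 of 33 receptor genes rose and 4 fell (Unc50 and Unc5cl left out), and of 5 adaptor genes 2 fell.

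**Figure D1:**
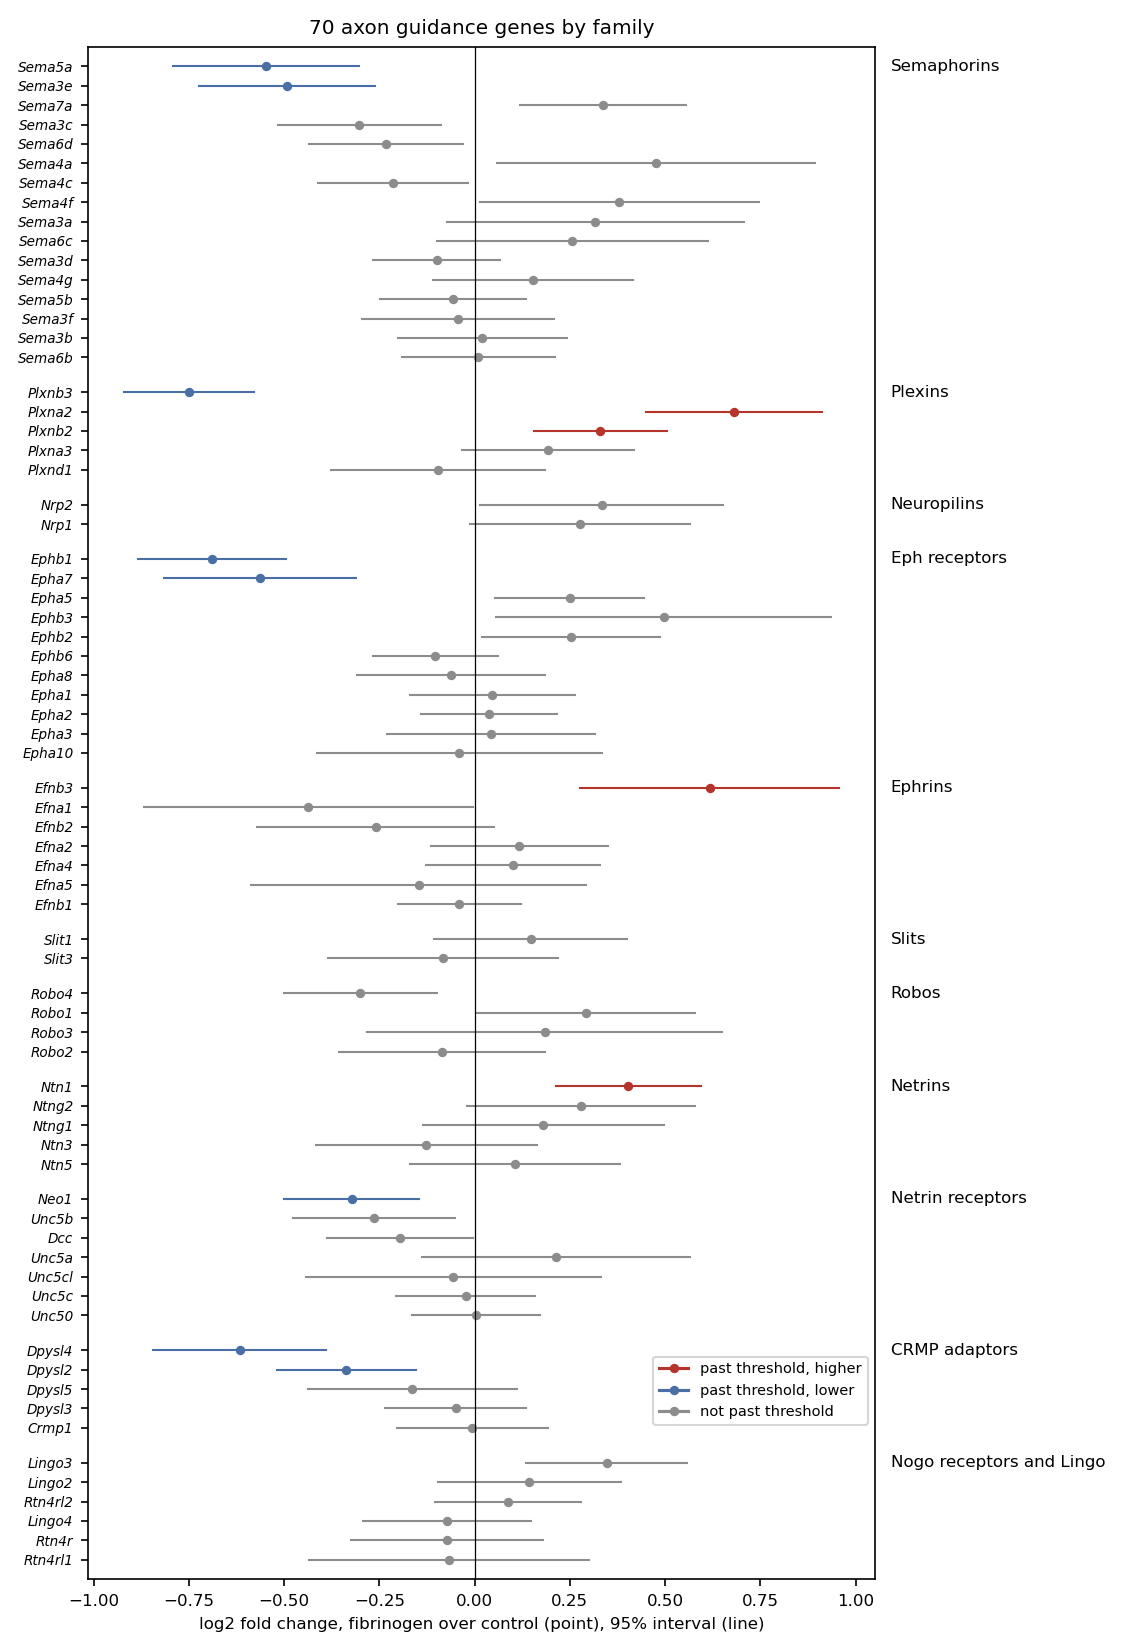
Each row is 1 of the 70 genes, grouped by family; the point is the log2 fold change of fibrinogen over control, and the line its 95% interval. The 4 red genes passed the threshold as higher and the 8 blue ones as lower, and most families hold members on both sides of 0.

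Most plexin genes measured were called, and in opposite directions: 2 of 5 rose and 1 fell. Plxnb3, the receptor of Sema5a and a plexin gene known from oligodendrocyte lineage cells, had log2 expression of 8.91, 8.84 and 8.88 on the fibrinogen arrays and 9.64, 9.68 and 9.56 on the control arrays (probe set 10935962). The groups were far apart relative to their spread, with means of 8.88 ± 0.04 and 9.63 ± 0.06 (SD, n = 3 each). The 1.68-fold fall was the largest change among the members (-0.75 on the log2 scale, SE 0.07, adjusted p = 0.00293). Plxna2, a receptor for class 6 semaphorins and, with neuropilins, for class 3, stood at 7.35, 7.05 and 7.32 with fibrinogen and at 6.60, 6.54 and 6.54 in control. Fibrinogen 2 was the lowest of the treated arrays, yet lay above every control array, and the rise was 1.60-fold (0.68 on the log2 scale, SE 0.10, adjusted p = 0.00951). Plxnb2, a receptor for class 4 semaphorins, was at 7.72, 7.61 and 7.60 with fibrinogen and 7.36, 7.28 and 7.30 in control, a 1.26-fold rise without overlap (adjusted p = 0.0433).

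Plxnb3 and Plxna2 kept their calls when each array was dropped in turn (adjusted p at most 0.0200 and 0.0463), whereas that of Plxnb2 was lost whichever array was left out (adjusted p between 0.0714 and 0.144) and with median-centred arrays (adjusted p = 0.0702). The other plexins did not pass. Plxna3, a partner of neuropilins, had a log2 fold change of 0.19 (95% interval -0.03 to 0.42), and Plxnd1, the Sema3e receptor, -0.10 (95% interval -0.38 to 0.18). Both neuropilin genes had positive estimates that did not pass, and 1 of the 2 had an unadjusted p under 0.05. Nrp2 was at 5.49, 5.67 and 5.75 with fibrinogen and 5.19, 5.14 and 5.58 in control (log2 fold change 0.33, 95% interval 0.02 to 0.65, adjusted p = 0.216). Nrp1 was at 4.93, 4.99 and 4.80 with fibrinogen and 4.85, 4.41 and 4.63 in control (log2 fold change 0.28, 95% interval -0.01 to 0.57). For both genes 1 control array lay within the range of the treated arrays.

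**Figure D2:**
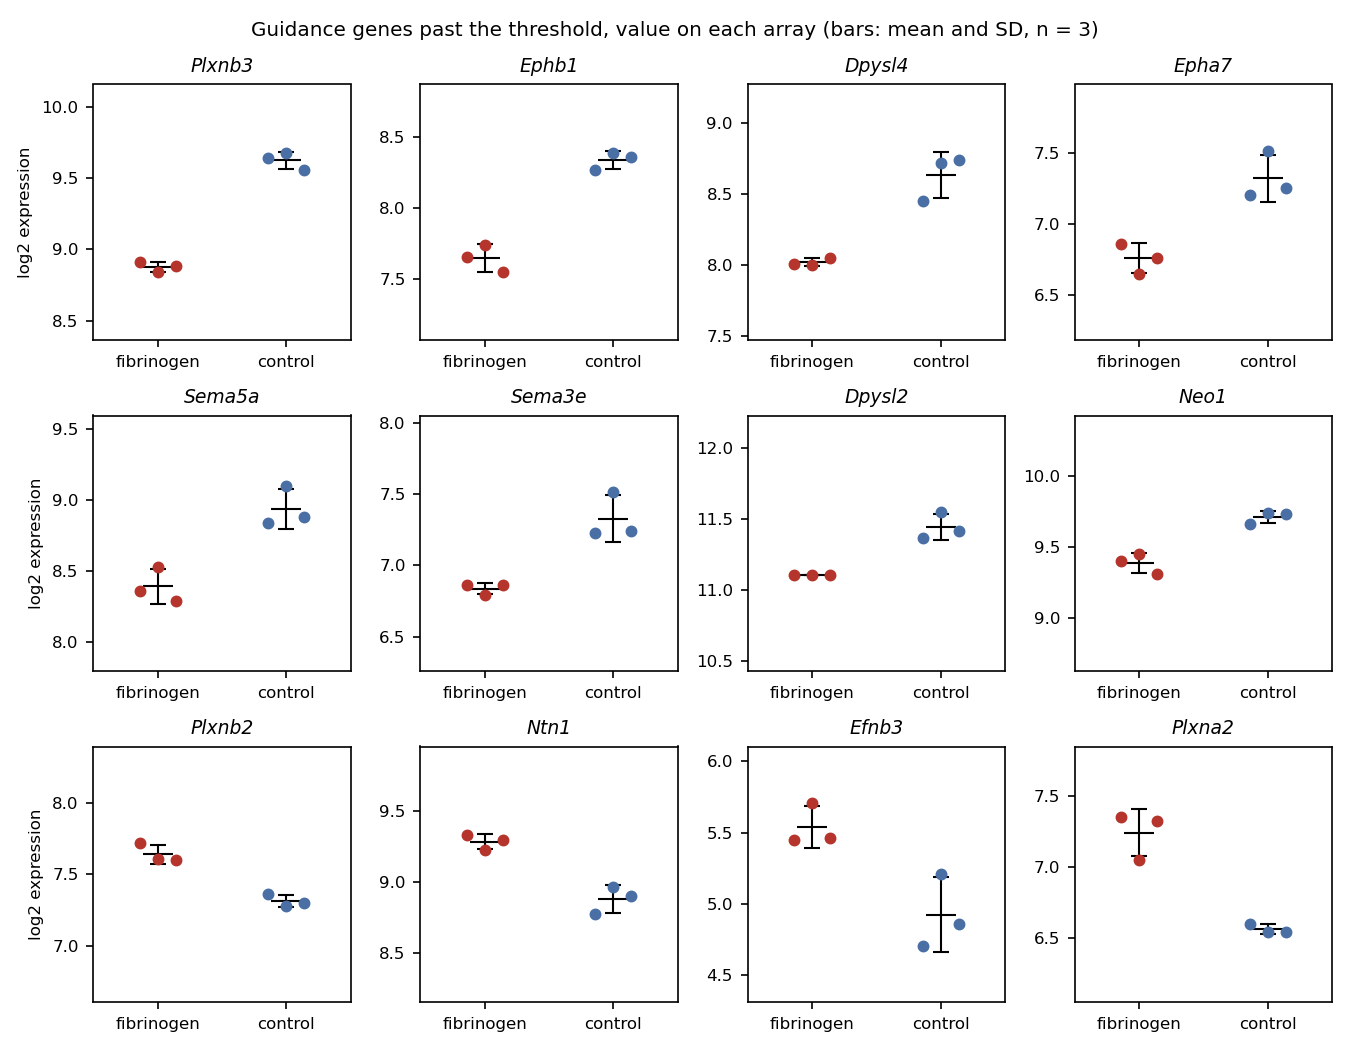
Log2 expression on each array for the 12 guidance genes past the threshold, ordered from the largest fall (Plxnb3) to the largest rise (Plxna2), with fibrinogen arrays in red and control arrays in blue; bars give mean and SD (n = 3), and every panel spans the same height on the log2 scale. No fibrinogen array overlaps a control array in any panel, but the genes were picked by their p on these same arrays, so the gaps are no separate support.

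The promoters of Plxna2, Plxnb3 and Ephb1 are shown because these 3 genes kept their calls when each array was dropped in turn, and because the series title names BMP signaling, whose SMAD proteins bind short DNA words. The sequences are from RefSeq on the GRCr8 build and give the 250 bases before each gene's start, 5′ to 3′ on the gene's strand. Capitals mark matches on either strand to GGCGCC, a GC-rich word bound by BMP-activated SMADs, and to CAGACA, which holds the CAGA SMAD box. The Plxna2 stretch is chr13:108691280-108691529 (+ strand), the Plxnb3 stretch chrX:156646624-156646873 (+ strand) and the Ephb1 stretch chr8:111823760-111824009 (- strand).
Plxna2: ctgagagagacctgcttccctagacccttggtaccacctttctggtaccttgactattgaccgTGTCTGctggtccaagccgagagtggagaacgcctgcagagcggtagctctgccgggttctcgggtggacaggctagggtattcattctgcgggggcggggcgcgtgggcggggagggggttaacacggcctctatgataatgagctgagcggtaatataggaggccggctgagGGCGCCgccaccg
Plxnb3: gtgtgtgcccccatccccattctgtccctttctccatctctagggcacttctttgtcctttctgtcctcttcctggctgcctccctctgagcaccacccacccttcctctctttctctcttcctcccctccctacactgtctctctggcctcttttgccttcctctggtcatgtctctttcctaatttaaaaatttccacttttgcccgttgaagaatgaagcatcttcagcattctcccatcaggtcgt
Ephb1: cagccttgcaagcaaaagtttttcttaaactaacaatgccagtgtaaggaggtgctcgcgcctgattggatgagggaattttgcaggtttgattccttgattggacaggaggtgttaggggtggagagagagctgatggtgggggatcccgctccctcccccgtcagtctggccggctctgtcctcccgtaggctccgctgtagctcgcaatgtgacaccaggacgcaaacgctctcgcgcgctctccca

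The Plxna2 stretch, of the gene that rose, holds 1 GGCGCC with its first base at -13 from the gene's start. It also holds 1 CAGACA on the opposite strand, which reads TGTCTG on the gene's strand from -187 on. GGCGCC reads the same on both strands, and the matches do not overlap. The Plxnb3 and Ephb1 stretches, of genes that fell, hold neither word. G and C made up 61.6% of the Plxna2 stretch, 50.8% of that of Plxnb3 and 56.4% of that of Ephb1. RefSeq promoters (250 bases before to 50 after the start) matched 59 of the 70 members and 8 of the 12 called ones. GGCGCC lay in 18 of the 61 promoters of the 59 matched genes (29.5%), in 17.9% of the promoters of all tested genes and in 11.02% of all promoters in the table. Both matched members that rose held it (Plxna2 and, from base 37 after its start, Plxnb2), as did 1 of 6 matched members that fell (Neo1, first base at -24). So did 15 of the 53 promoters of members not past the threshold (28.3%). A link between the word and the direction of change was not tested. CAGACA lay in 14.8% of member promoters and 18.2% of those of tested genes. The SMAD palindrome GTCTAGAC was in no member promoter and in 0.182% of those of tested genes. These matches are letters in a window, with no measurement of binding.

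Of 16 semaphorin genes, 2 fell and 14 did not pass. Sema5a, a transmembrane semaphorin with thrombospondin repeats that binds plexin B3, had log2 expression of 8.36, 8.53 and 8.29 on fibrinogen arrays and 8.84, 9.10 and 8.88 on control arrays. Every treated array lay below every control array, and the fall was 1.46-fold (-0.55 on the log2 scale, SE 0.10, adjusted p = 0.0259). It thus fell together with the gene of its receptor, Plxnb3. Sema3e, a secreted semaphorin that binds plexin D1 without a neuropilin, was at 6.86, 6.79 and 6.86 with fibrinogen and 7.23, 7.52 and 7.24 in control. The treated arrays were tightly grouped and the fall was 1.41-fold (-0.49 on the log2 scale, SE 0.10, adjusted p = 0.0295). The call of Sema5a was lost without fibrinogen 1, fibrinogen 3, control 2 or control 3 (adjusted p up to 0.0969), and that of Sema3e in every refit with 1 array dropped, except that without control 1 (adjusted p up to 0.106).

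The other semaphorins ran from -0.30 to 0.48 on the log2 fold change scale. Sema7a, a membrane-anchored semaphorin that binds plexin C1 and integrins, was at 8.07, 8.22 and 8.35 with fibrinogen and 7.82, 7.94 and 7.87 in control. The arrays did not overlap, but the gene did not pass (estimate 0.34, 95% interval 0.12 to 0.56, adjusted p = 0.0827). Sema3c, a secreted semaphorin, had the largest negative estimate of those that did not pass (estimate -0.30, 95% interval -0.52 to -0.09, adjusted p = 0.105). Sema3a, which repels OPCs and holds back their maturation, was at 7.45, 7.02 and 7.19 with fibrinogen and 6.58, 7.09 and 7.04 in control. Its groups overlapped, with control 1 apart at the low end, and the estimate was 0.32 (95% interval -0.07 to 0.71, adjusted p = 0.342). Sema3f, which attracts OPCs through neuropilin 2, was at 5.21, 5.36 and 5.18 with fibrinogen and 5.47, 5.13 and 5.28 in control, with full overlap (log2 fold change -0.04, 95% interval -0.30 to 0.21). The interval of Sema3a thus includes changes of up to 0.71 on the log2 scale, and that of Sema3f ends at 0.21.

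Of 11 Eph receptor genes, 2 fell and 9 did not pass. Ephb1, a tyrosine kinase receptor for ephrin-B ligands, had log2 expression of 7.66, 7.74 and 7.55 on fibrinogen arrays and 8.27, 8.39 and 8.36 on control arrays. The gap between the groups was several times the spread within either, with means of 7.65 ± 0.10 and 8.34 ± 0.06 (SD, n = 3 each), and the fall was 1.61-fold (-0.69 on the log2 scale, SE 0.08, adjusted p = 0.00493). It kept its call when each array was dropped in turn (adjusted p at most 0.0298). Epha7, a receptor for ephrin-A ligands, was at 6.86, 6.65 and 6.76 with fibrinogen and 7.20, 7.51 and 7.25 in control, a 1.48-fold fall without overlap (-0.56 on the log2 scale, SE 0.11, adjusted p = 0.0259). Its call was lost in every refit with 1 array dropped, except that without control 1 (adjusted p up to 0.0951).

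The other Eph receptors included members with estimates of the opposite sign. Ephb3 was at 7.05, 6.37 and 6.88 with fibrinogen and 6.04, 6.42 and 6.35 in control; fibrinogen 2 lay within the control range, and the gene did not pass (estimate 0.50, 95% interval 0.06 to 0.94, adjusted p = 0.183). Epha5 had an estimate of 0.25 (95% interval 0.05 to 0.45, adjusted p = 0.137). Epha1, Epha2, Epha3, Epha8 and Epha10 had log2 fold changes between -0.06 and 0.05, and for each gene the arrays of the groups overlapped.

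Of 7 ephrin genes, 1 rose. Efnb3, a membrane-bound ephrin found in myelin that has been reported to hold back OPC maturation and axon growth, had log2 expression of 5.45, 5.71 and 5.46 on fibrinogen arrays and 4.70, 5.21 and 4.86 on control arrays. The groups did not overlap, but control 2 lay close to the treated arrays. The control mean of Efnb3 lay under the arrays' median, as for no other called member. The rise was 1.53-fold (0.62 on the log2 scale, SE 0.14, adjusted p = 0.0491). Its call was lost with median-centred arrays (adjusted p = 0.0601) and in every refit with 1 array dropped, except that without control 2 (adjusted p up to 0.151). Thus an ephrin-B gene rose while Ephb1, the gene of an ephrin-B receptor, fell. This opposition did not extend to the other EphB receptor genes, none of which passed. Of these, Ephb3 and Ephb2 had positive estimates (0.50 and 0.25) and Ephb6 a negative one (-0.10). Efnb2, another ephrin-B, was at 5.50, 4.99 and 5.33 with fibrinogen and 5.59, 5.47 and 5.54 in control (log2 fold change -0.26, 95% interval -0.57 to 0.05). Efna1 was at 7.0, 6.88 and 6.67 with fibrinogen and 6.87, 7.46 and 7.53 in control. Here control 1 lay among the treated arrays, and the gene, which did not pass (log2 fold change -0.44, adjusted p = 0.233), was called lower without that array (log2 fold change -0.65, adjusted p = 0.0367).

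Among 5 netrin genes, Ntn1 rose and the others did not pass. Ntn1, the secreted netrin that guides axons and OPCs through Dcc and the Unc5 receptors, had log2 expression of 9.33, 9.23 and 9.30 on fibrinogen arrays and 8.78, 8.97 and 8.90 on control arrays. All treated arrays lay above all control arrays, a 1.32-fold rise (0.40 on the log2 scale, SE 0.08, adjusted p = 0.0304). The call was lost in every refit with 1 array dropped, except that without control 2 (adjusted p up to 0.111). The netrin G genes, which encode membrane-anchored proteins that do not bind Dcc, had estimates of 0.28 for Ntng2 (95% interval -0.02 to 0.58) and 0.18 for Ntng1 (95% interval -0.14 to 0.50).

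Among the netrin receptors, Neo1 fell. Neo1 (neogenin), a receptor for both netrins and the repulsive guidance molecules, was at 9.40, 9.45 and 9.31 with fibrinogen and 9.66, 9.74 and 9.73 in control. The groups did not overlap, and the fall was 1.25-fold (-0.32 on the log2 scale, SE 0.08, adjusted p = 0.0480), the smallest among the called members. Its call was lost whichever array was left out (adjusted p between 0.0761 and 0.154). Dcc, the attractive netrin receptor, was at 7.35, 7.42 and 7.33 with fibrinogen and 7.46, 7.66 and 7.57 in control (log2 fold change -0.20, 95% interval -0.39 to -0.01, adjusted p = 0.225). Unc5b, a repulsive netrin receptor, was at 4.83, 4.74 and 4.60 with fibrinogen and 4.89, 5.02 and 5.05 in control (log2 fold change -0.26, 95% interval -0.48 to -0.05, adjusted p = 0.147). For Dcc and Unc5b, too, every treated array lay below every control array, but neither passed the test. Unc5a had an estimate of 0.21 and Unc5c of -0.02, both with overlapping arrays.

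No Slit or Robo gene passed in limma, and at an unadjusted p under 0.05 stood 0 of 2 Slits and 2 of 4 Robos. Slit1 and Slit3, secreted repellents, had log2 fold changes of 0.15 (95% interval -0.11 to 0.40) and -0.08 (95% interval -0.38 to 0.22). Robo1, a Slit receptor, was at 6.5, 6.35 and 6.28 with fibrinogen and 5.92, 6.32 and 6.01 in control (log2 fold change 0.29, 95% interval 0.01 to 0.58, adjusted p = 0.226). Robo4, known as an endothelial Robo, was at 4.19, 4.11 and 4.06 with fibrinogen and 4.5, 4.30 and 4.46 in control (log2 fold change -0.30, 95% interval -0.50 to -0.10, adjusted p = 0.0886). Its level was low on every array, beside endothelial markers whose mean lay between 4.01 and 4.27 with fibrinogen and between 3.97 and 4.46 in control.

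All 5 CRMP genes had negative estimates, and 2 of them fell. Median centring lowers every estimate by the same amount, so it could not turn a negative estimate positive. CRMP proteins bind tubulin and carry semaphorin signals to the skeleton of growing processes. Dpysl4 (CRMP3) had log2 expression of 8.01, 8.0 and 8.05 on fibrinogen arrays and 8.45, 8.72 and 8.74 on control arrays. The treated arrays were nearly equal and well below all controls, a 1.53-fold fall (-0.62 on the log2 scale, SE 0.10, adjusted p = 0.0125). Dpysl2 (CRMP2, the adaptor through which Sema3a collapses growth cones) was at 11.11 on all 3 fibrinogen arrays and at 11.37, 11.55 and 11.42 on control arrays, a 1.26-fold fall (-0.34 on the log2 scale, SE 0.08, adjusted p = 0.0463). The call of Dpysl4 was lost without any one fibrinogen array (adjusted p up to 0.0590), and that of Dpysl2 whichever array was left out (adjusted p between 0.0610 and 0.139). Dpysl5, Dpysl3 and Crmp1 had log2 fold changes of -0.16, -0.05 and -0.01 and did not pass.

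None of the 6 Nogo receptor and Lingo genes passed in limma, and 1 had an unadjusted p under 0.05. Lingo3 was at 6.10, 5.89 and 6.09 with fibrinogen and 5.72, 5.73 and 5.59 in control, without overlap (log2 fold change 0.35, 95% interval 0.14 to 0.56, adjusted p = 0.0683). Lingo2 had an estimate of 0.14 (95% interval -0.10 to 0.38). Rtn4r, the receptor for the myelin proteins Nogo, Mag and Omg, was at 6.63, 6.58 and 6.45 with fibrinogen and 6.76, 6.43 and 6.69 in control, with overlap (log2 fold change -0.07, 95% interval -0.33 to 0.18).

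**Figure D3:**
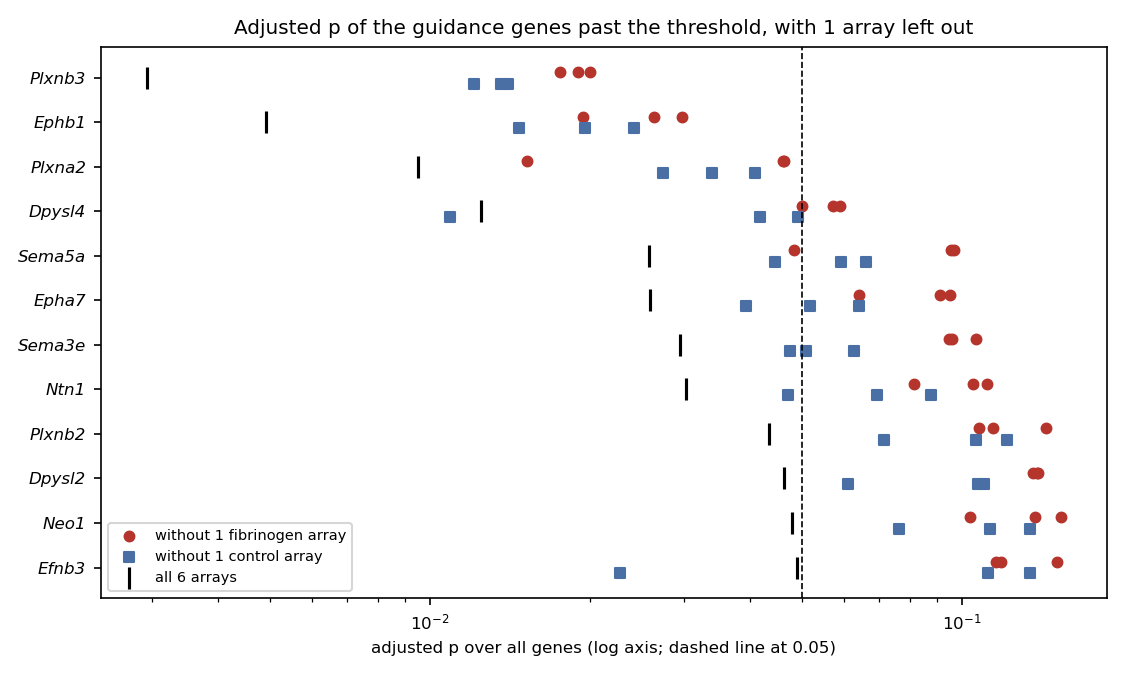
Adjusted p (log axis) of the 12 guidance genes past the threshold, with all 6 arrays (black tick), without 1 fibrinogen array (red circles) and without 1 control array (blue squares). Plxnb3, Ephb1 and Plxna2 stay left of the dashed line at 0.05 in every case, and Plxnb2, Dpysl2 and Neo1 cross it in every case.

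The ligands of Rtn4r, and the proteins through which guidance receptors act, were read from separate lists of genes. Among 5 ligands and co-receptors of the Nogo receptor, Mag, a myelin glycoprotein, was at 9.18, 9.22 and 9.31 with fibrinogen and 9.85, 9.95 and 9.80 in control. It fell 1.55-fold without overlap (log2 fold change -0.63, adjusted p = 0.00563). Tnfrsf19 (TROY, a co-receptor) was at 7.62, 7.87 and 7.69 with fibrinogen and 8.02, 8.22 and 8.25 in control, a 1.35-fold fall (adjusted p = 0.0481) that was lost in every refit with 1 array dropped, except that without control 1 (adjusted p up to 0.159). Rtn4 (Nogo), Omg and Ngfr had estimates of -0.21, -0.04 and -0.07 and did not pass. Mag is also an oligodendrocyte marker, 7 of which fell.

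Among 47 measured intracellular effectors, 2 rose, 2 fell and 43 did not pass. That is 8.51% called, close to the 7.16% of all genes. On looser measures the list stood further from all genes. The arrays did not overlap for 22 of the 47 (46.8%), where 27.0% of all genes had no overlap. An unadjusted p under 0.05 in limma was reached by 19 of the 47, and by 21.1% of all genes. Chn2 (beta2-chimaerin, which switches off Rac downstream of neuropilin 2) had log2 expression of 9.84, 10.04 and 9.98 on fibrinogen arrays and 10.77, 10.69 and 10.75 on control arrays. The groups were far apart, and the fall was 1.72-fold (-0.78 on the log2 scale, SE 0.08, adjusted p = 0.00345). Gipc1, an adaptor that binds the tail of neuropilin 1, was at 8.78, 8.79 and 8.83 with fibrinogen and 9.24, 9.29 and 9.28 in control, a 1.39-fold fall (adjusted p = 0.00970). Both calls held when each array was dropped in turn (adjusted p at most 0.0210 and 0.0492). Rnd1 was at 5.82, 5.97 and 6.20 with fibrinogen and 4.73, 5.38 and 5.02 in control. Its rise of 1.94-fold (0.95 on the log2 scale, SE 0.18, adjusted p = 0.0228) was lost without control 3 or any one fibrinogen array (adjusted p up to 0.0867). Gap43, a growth cone protein, was at 10.79, 10.87 and 10.91 with fibrinogen and 10.56, 10.44 and 10.55 in control, so that it rose 1.27-fold (adjusted p = 0.0437), a call lost whichever array was left out (adjusted p up to 0.143) and with median-centred arrays (adjusted p = 0.0694).

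Among 24 further measured guidance cues and receptors, 6 rose and none fell in limma (25% called, where 7.16% of all genes were). This list was chosen with earlier results of these data known, so the share is a description only. Of the 24 estimates 7 were negative. Of these, Cdon and Vegfa had an unadjusted p under 0.05 (estimates -0.26 and -0.27). Cxcr4, the receptor through which the chemokine Cxcl12 guides migrating cells, was at 7.05, 7.20 and 7.38 with fibrinogen and 6.31, 6.18 and 6.23 in control, a 1.96-fold rise (0.97 on the log2 scale, SE 0.10, adjusted p = 0.00345). Sdc3, a heparan sulfate proteoglycan of the cell surface, was at 10.57, 10.44 and 10.47 with fibrinogen and 9.68, 9.61 and 9.63 in control, a 1.81-fold rise (0.85 on the log2 scale, SE 0.07, adjusted p = 0.00189). Both kept their calls when each array was dropped in turn (adjusted p at most 0.0194 for Cxcr4 and 0.0156 for Sdc3). Rgma, a repulsive ligand of neogenin, was at 8.12, 7.79 and 8.20 with fibrinogen and 7.29, 7.43 and 7.44 in control, so that it rose (1.57-fold, adjusted p = 0.0229) while its receptor gene Neo1 fell. Its call was lost in every refit with 1 array dropped, except that without fibrinogen 2 (adjusted p up to 0.0924).

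The remaining rises of that list were of membrane proteins. Celsr3, an atypical cadherin needed for axon tracts, was at 6.40, 6.11 and 6.15 with fibrinogen and 5.32, 5.80 and 5.56 in control (1.58-fold, adjusted p = 0.0365). Dscam, an adhesion molecule that also binds netrin 1, was at 7.38, 7.27 and 7.36 with fibrinogen and 6.78, 7.0 and 6.99 in control (1.33-fold, adjusted p = 0.0378). Nrcam, an adhesion molecule that pairs with neuropilin 2, was at 6.72, 6.81 and 6.88 with fibrinogen and 6.48, 6.0 and 6.25 in control (1.47-fold, adjusted p = 0.0449). None of the 3 genes had overlapping groups. The calls were lost without any one array for Dscam (adjusted p up to 0.131), any but control 2 for Celsr3 (adjusted p up to 0.122) and any but control 1 for Nrcam (adjusted p up to 0.143), and for Nrcam also with median-centred arrays (adjusted p = 0.0644).

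**Figure D4:**
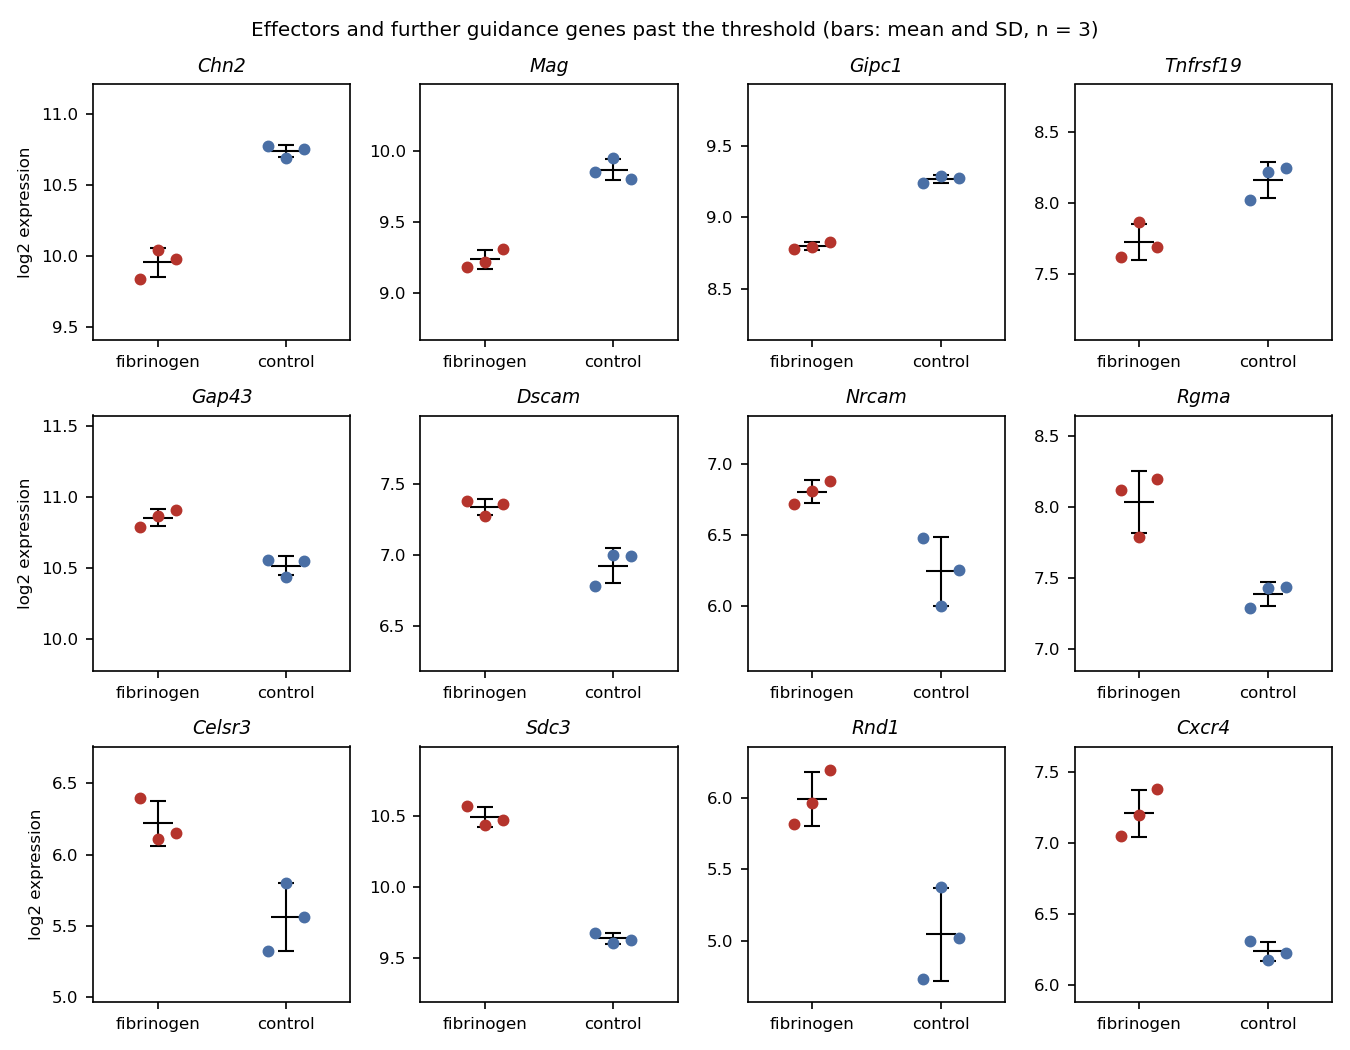
Log2 expression on each array for the 12 genes of the effector, Nogo receptor ligand and further guidance lists that passed the threshold, ordered from the largest fall (Chn2) to the largest rise (Cxcr4), with fibrinogen arrays in red and control arrays in blue; bars give mean and SD (n = 3). In every panel the 3 fibrinogen arrays lie on one side of the 3 control arrays, but these genes too were picked by their p on the same arrays.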

How the data were processed

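Probe set values on the log2 scale, as the authors deposited them to 2 decimals, were read for all 6 rat gene arrays. Per the submitters' processing notes RMA and limma were used; their versions and settings are not given in the sources used here. The table has 26312 rows, 23631 of them with values, and array medians of 5.78 to 5.84. No detection call is given, and RMA compresses changes of dim probes. The number of arrays limits the precision (median SE of a log2 fold change 0.10).

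Probe sets with 1 gene symbol in the platform annotation were kept (14083), and the one with the highest mean stood for a gene; among the members only Sema4c had a second, with an estimate of the same sign (-0.25 against -0.21). All members but Robo4 matched a current rat gene record. The contrast of fibrinogen over control came from a two-sided moderated fit (lmFit, eBayes) in limma 3.58.1 under R 4.3.3, without covariate or filter, and intervals are 95%. The fit was tested on simulated data. Members and lists were chosen with earlier results of these data known, and no set test was run. Named are all called members, the 2 uncalled ones of smallest p per family, and up to 6 called genes per further list. A set of members was named whatever their values (Sema3a, Sema3f, Nrp1, Nrp2, Ntn1, Dcc, Unc5b, Efnb2, Efnb3, Rtn4r and Dpysl2). Others are given as ranges or were chosen after their values were seen. The latter were Unc5a, Unc5c, Crmp1, Epha1, Epha2, Epha3, Epha8, Epha10, Ephb2, Ephb6, Sema3d, Sema4a, Sema4c, Sema4f, Sema6d, Rtn4, Omg, Ngfr, Cdon and Vegfa. Alternatives were a replicate block, median centring, the mean of probes, a filter on dim genes, a variance trend, an unmoderated test and leaving out each array. Same-numbered arrays did not deviate together (correlations of 0.02, -0.14 and -0.07 over genes), so the numbers were not taken as pairs.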

Additional observations from a re-analysis of the deposited data

How the results depend on the processing

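Compared with the 4 members called higher and 8 called lower, the fit with a replicate block called 2 and 4, and the unmoderated linear model called 0 and 2 (7 and 16 at an unadjusted p under 0.05). Centring arrays on their medians gave 2 higher and 8 lower. Leaving out 1 array gave 1 to 4 higher and 2 to 7 lower, with more higher than lower (4 and 3) in 1 case, without control 2. With the mean of probes, the variance trend, or without the dimmest 25% of genes, all 12 calls were kept, and the trend called 5 higher and 9 lower. The 2 calls left in the unmoderated model were those of Plxnb3 and Ephb1, while Plxna2 did not pass there (adjusted p = 0.0545). With the replicate block the calls of Plxna2, Efnb3, Plxnb3, Ephb1, Sema5a and Dpysl4 were kept. Those of Plxnb2, Ntn1, Neo1, Epha7, Sema3e and Dpysl2 were lost. Over all genes, in place of 555 higher and 401 lower, the replicate block called 199 and 144, the unmoderated model 268 and 232, the variance trend 947 and 692, leaving out 1 array 208 to 379 and 150 to 239, and median centring 434 and 516, the one setting with fewer genes higher than lower. The members' median change was -0.02 on the log2 scale, -0.062 with median centring, -0.04 without the dimmest genes, and -0.026 to 0.018 with 1 array left out. That median was above 0 without control 1 (0.018) or control 2 (0.0033), and 5 members, none of them called, changed sign with median centring. No called member changed sign. Median centring lowers the log2 fold change of every gene by the same amount. The median over all genes went from 0.003 to -0.043 with it. The cause of the other shifts was not tested. No detection call is given, so whether the 33 members with a control mean under the arrays' median were above background is not known.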

Other observations

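Fibrinogen and control arrays did not overlap for 24 members (34.3%), where 27.0% of all genes had no overlap. Another 12 members beside the called ones are among these 24, 8 of them lower and 4 higher with fibrinogen. They were singled out after their values were seen. The share without overlap among all uncalled genes was not worked out, so these 12 are not read as an excess. Lower, beside Sema3c, Dcc, Unc5b and Robo4, were 3 more semaphorins and 1 Eph receptor. Sema6d, a transmembrane semaphorin that binds plexin A1, was at 8.72, 8.87 and 8.75 with fibrinogen and 8.92, 9.12 and 9.0 in control (log2 fold change -0.23, adjusted p = 0.174). Sema4c, a ligand of plexin B2, was at 8.91, 8.85 and 8.89 with fibrinogen and 9.23, 9.03 and 9.03 in control (log2 fold change -0.21, adjusted p = 0.200), and so had an estimate opposite in sign to its receptor gene Plxnb2. Sema3d and Ephb6 had estimates of -0.10 each (adjusted p = 0.492 and 0.470). Higher, beside Sema7a, Lingo3 and Epha5, was Ephb2, an ephrin-B receptor, at 7.52, 7.70 and 7.56 with fibrinogen and 7.33, 7.49 and 7.20 in control (log2 fold change 0.25, adjusted p = 0.201), the opposite sign to Ephb1. The 4 higher estimates kept their sign with median-centred arrays. For the 8 lower ones the sign could not change, because centring lowers every estimate by the same amount.

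Sema7a was called higher without the dimmest 25% of genes (adjusted p = 0.0468) and with the variance trend (adjusted p = 0.0183), and Lingo3 without the dimmest 25% (adjusted p = 0.0376). Sema6d was called lower with the variance trend (adjusted p = 0.0448). Of the semaphorins not past the threshold with all arrays, Sema4a was called higher without control 2 (adjusted p = 0.0479) and Sema4f without control 1 (adjusted p = 0.0460). At an unadjusted p under 0.05 stood 28 of the 70 members (40.0%), and 21.1% of all genes.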
